A study of Homo sapiens with 7 samples.

Results

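The FOXA1 binding profile (cistrome) of 22Rv1 cells was recorded in 2 control lists of peaks, one titled Veh and one titled shCTL, in which SETD7 was not targeted. All peaks of both lists on chromosomes 1 to 22 and X were taken, which gave 65093 Veh peaks and 83633 shCTL peaks, or 148726 of the 464730 peaks of the 7 lists in the series. Peaks that had 1 bp or more in common between the lists are called shared, and a peak with none from the other list within 1 kb is called private. The comparison gives the variation between lists that exists without SETD7 knockdown.

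FOXA1 is a forkhead pioneer transcription factor that binds its sites in closed chromatin and opens them for other factors. In luminal prostate cells it prepares enhancers for the androgen receptor. SETD7 is a lysine methyltransferase, and the series concerns its methylation of FOXA1.

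22Rv1 (CWR22-Rv1 in the labels) is an established human prostate cancer line that grew from a xenograft. The Veh library came from 22Rv1 cells labelled with treatment Veh, with no agent or duration stated, and all 65461 peak names of this list carry the tag siNTC. The shCTL library came from 22Rv1 cells that stably express a control hairpin, named shNTC in the design text. Whether these cells are a clone or a pool is not given. Both libraries used an Abcam antibody against FOXA1 and chromatin fixed with 1% formaldehyde. Further lists served as readouts that the pairing did not use: shSETD7, FOXA1 in 22Rv1 with a stable hairpin against SETD7, and 3 FOXA1 lists of LNCaP, another prostate cancer line. The LNCaP cells had 4 hours of GSK2879552 (an LSD1 inhibitor), of GSK2879552 with PFI-2 (a SETD7 inhibitor), or of DMSO. The treatment label of the combination list leaves PFI-2 ambiguous, and its title names both agents. A SETD7 list of vehicle 22Rv1 cells was the remaining readout. Each group is 1 library, so no difference between conditions was tested. The intervals given are 95% Wilson intervals, which cover counting error only. Peak names of the shSETD7 and shCTL lists carry the same processing path, and those of the Veh list do not, so processing and cell treatment cannot be told apart between Veh and shCTL. Read depth is not in the lists.

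The Veh and shCTL cells had a common set of 42852 FOXA1 sites once overlapping peaks were merged, or 40.8% (40.5 to 41.1) of 105090 merged sites. A further 21461 sites were found with Veh only, and 40777 with shCTL only. Counted over peaks, 67.0% of the Veh list (43632 peaks, 66.7 to 67.4) and 51.2% of the shCTL list (42856 peaks, 50.9 to 51.6) were shared. Private peaks made up 30.1% of the Veh list (19586 peaks, 29.7 to 30.4) and 45.5% of the shCTL list (38053 peaks, 45.2 to 45.8). The shCTL list was the longer. With both lists limited to 65093 peaks by score, the private shares were 35.6% for Veh and 36.5% for shCTL. Few peaks overlapped several peaks of the other list, so lists of equal length give nearly equal shares by construction. This near equality is therefore no test of what made the gap between the full lists.

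Peaks that missed each other narrowly were few. Only 1875 Veh peaks and 2724 shCTL peaks had no overlap but a peak of the other list within 1 kb. The 1 kb limit fell in a flat stretch of the gaps: 167 Veh peaks had a gap of 900 to 1000 bp and 159 a gap of 1000 to 1100 bp, and for shCTL the counts were 271 and 251. Median scores just inside and just outside the limit were 63 and 64 in the Veh list and 77 and 89 in the shCTL list. Peaks without overlap were typically far from the other list, with a median gap of 10518 bp for Veh and 12799 bp for shCTL.

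Private FOXA1 sites were mainly the weak ones. The score is a whole number that the authors gave each peak, and it was used only to rank peaks within a list. Of the private peaks, 78.6% of those in Veh and 73.6% of those in shCTL lay in the lower 5 score deciles of their list. In the lowest decile 58.2% of Veh peaks (57.0 to 59.4) and 81.2% of shCTL peaks (80.3 to 82.0) were private. In decile 5 the shares were 37.0% in Veh and 52.5% in shCTL, and in decile 9 they were 4.85% in Veh and 14.2% in shCTL. In the highest decile 72 of 6510 Veh peaks were private, or 1.11% (0.879 to 1.39), against 303 of 8364 shCTL peaks, or 3.62% (3.24 to 4.04). Every step up in decile lowered the private share in both lists. With equal-sized lists the highest decile gave 1.44% for Veh and 2.73% for shCTL.

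**Figure D1:**
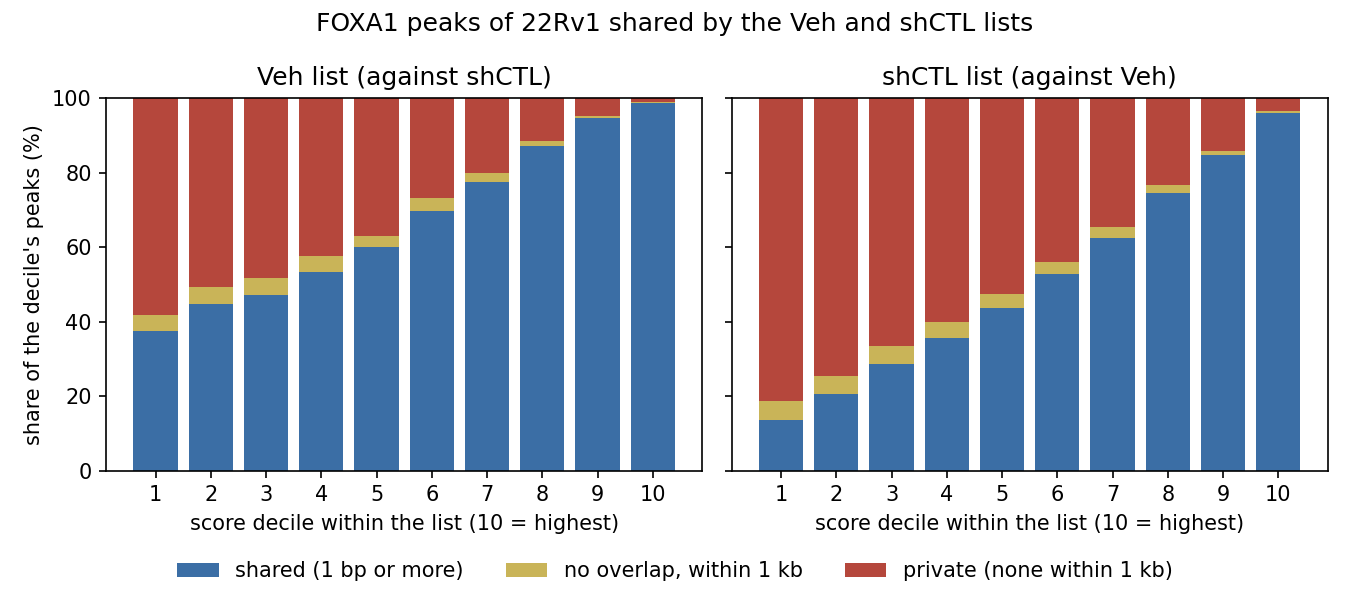
Share of peaks (%) in each score decile of the Veh list (left) and the shCTL list (right) that were shared, had no overlap but a peak within 1 kb, or were private. Private peaks fall from 58.2% to 1.11% across the Veh deciles and from 81.2% to 3.62% across the shCTL deciles.

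Shared peaks marked closely the same positions but were narrower in Veh. The midpoints of shared pairs (each shared Veh peak with its highest-scoring shCTL partner) lay a median of 28 bp apart, and 86.8% lay within 100 bp. Veh peaks had a median width of 292 bp in these pairs and shCTL peaks 386 bp. The ratio of widths, Veh over shCTL, had a median of 0.784 (quartiles 0.624 and 0.929), and 83.3% of Veh peaks were the narrower of the pair. Of the Veh peaks, 58.1% lay wholly inside their shCTL partner. The difference held for the lists as a whole: the narrowest peak was 187 bp in Veh and 219 bp in shCTL, and the medians were 262 bp in Veh and 340 bp in shCTL. In total the Veh peaks covered 18.5 Mb and the shCTL peaks 31.9 Mb. Pairing was nearly 1 to 1. Of the shCTL peaks, 740 overlapped 2 Veh peaks and 20 overlapped 3, and 4 Veh peaks overlapped 2 shCTL peaks.

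Private peaks were narrower than shared ones in both lists, with medians of 219 bp against 292 bp in Veh and 299 bp against 383 bp in shCTL. Within score deciles the medians lay closer together. In the Veh list private peaks were narrower in every decile, for example 190 bp against 201 bp in the lowest and 370.5 bp against 401 bp in the highest. In the shCTL list the medians were 267 bp for private and 272 bp for shared peaks in the lowest decile, and 488 bp for private and 487 bp for shared peaks in the highest.

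The order of the sites by strength was kept in part. Over the 43632 shared pairs, Spearman's rho between Veh and shCTL scores was 0.620, a description across peaks of 1 library pair that share the genome and each library's depth. Of the shared peaks in the highest Veh decile, 71.7% were also in the highest shCTL decile (4608 pairs). A further 17.3% were in shCTL decile 9. Agreement weakened below. Of the shared peaks in Veh decile 9, 32.1% were in the same shCTL decile, and of those in Veh decile 5, 13.1% were. Pairs lay unevenly over the shCTL deciles. Of all 43632 pairs, 8283 were in shCTL decile 10, 7242 in decile 9 and 3693 in decile 5. The decile shares above are to be read against these counts.

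**Figure D2:**
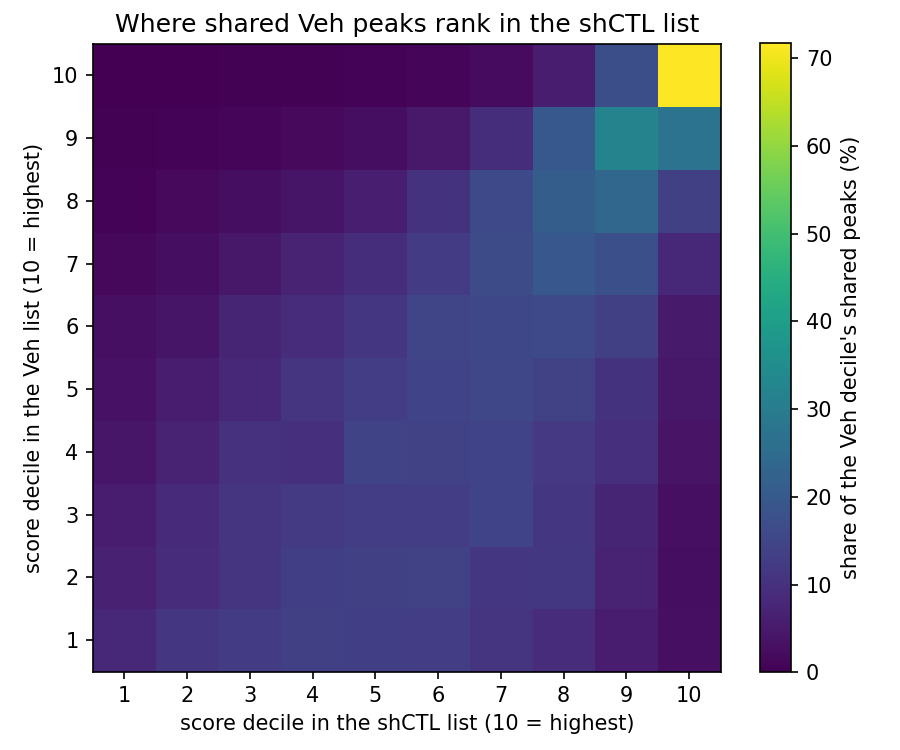
For each score decile of the Veh list (vertical axis), the share (%) of its shared peaks that fell in each shCTL decile (horizontal axis). The colour is brightest where both are in the highest decile, at 71.7%, and spreads over many shCTL deciles for Veh deciles 1 to 6.

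The highest peaks of each list were nearly all present in the other, at differing ranks. Of the 500 highest Veh peaks, all 500 had a shCTL peak, but 244 were among the 500 highest there (48.8%, 44.4 to 53.2). Of the 500 highest shCTL peaks, 498 had a Veh peak, and again 244 were among the 500 highest Veh peaks. Among the 5000 highest, 62.1% of Veh and 61.9% of shCTL peaks were in the other list's 5000 highest. At 20000 the shares were 64.6% for Veh and 64.2% for shCTL. Presence anywhere in the other list declined with list depth instead. It was 97.7% for the 10000 highest Veh peaks and 94.8% for the 10000 highest shCTL peaks, and 74.7% for Veh and 69.1% for shCTL at the 50000 highest.

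The sites that ranked highest in both lists were strong FOXA1 sites in both prostate lines. The 10 shared pairs with the highest summed percentiles were led by chromosome 17 from 5135435 to 5135937, which ranked 4 in Veh and 5 in shCTL. Next came chromosome 18 from 70856852 to 70857413 (ranks 2 in Veh and 12 in shCTL), chromosome 1 from 205672127 to 205672677 (10 in Veh and 2 in shCTL) and chromosome 2 from 242032650 to 242033291 (8 in both). The highest Veh score of all, 3392, was at chromosome 8 from 52811425 to 52811988, which ranked 19 in shCTL. Read over the Veh peak, all 10 overlapped a peak in the shSETD7 list and in the 3 LNCaP lists, and none overlapped a SETD7 peak. Of the 10, 2 were below percentile 99 of the shSETD7 list: the chromosome 18 site stood at percentile 90.1 of the shSETD7 list and a chromosome 12 site (64199688 to 64200256) at 89.3, where 100 is the highest score. Those 2 sites were at or above percentile 99.9 in Veh and in shCTL.

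Some sites were strong in 1 control list and weak in the other. Positions given for them, and overlap with the other lists, are those of the Veh peak of each pair. Parts of a shCTL partner beyond the Veh peak were not tested. The highest Veh decile held 114 shared peaks whose shCTL partner was in the lower 5 deciles, and the highest shCTL decile matched 559 Veh peaks in the lower 5 Veh deciles. The 114 Veh-strong sites overlapped LNCaP DMSO peaks in 94.7% of cases (89.0 to 97.6), and 93.6% of the 4608 sites in the highest decile of both lists did so. For the LNCaP list with GSK2879552 alone, the shares were 76.3% (67.7 to 83.2) of the 114 sites and 93.2% of the 4608. They overlapped shSETD7 peaks in 31.6% (23.8 to 40.6), against 84.4% (83.3 to 85.4) of those 4608 sites. The weak Veh peaks of the 559 shCTL-strong pairs overlapped DMSO peaks in 67.8% (63.8 to 71.5) and shSETD7 peaks in 57.8% (53.6 to 61.8). These shares were read over the weak peak of the pair, and those of the 114 over the strong one, so they are not like for like. Single examples, chosen after their values were seen, followed no 1 pattern in the other lists. A site on chromosome 1 from 191429329 to 191429758 was at percentile 97.7 in Veh and 1.05 in shCTL. It had no shSETD7 peak, and was at percentile 91.0 of the DMSO list. A site on chromosome 17 from 67322652 to 67322868 was at percentile 0.215 in Veh and 95.5 in shCTL. The Veh peak of that site overlapped an shSETD7 peak at percentile 97.9 of its list, and no LNCaP peak. Its shCTL partner was 807 bp wide and the Veh peak 217 bp, so the rest of the shCTL peak was not covered. A site on chromosome 3 from 115423774 to 115423960 was at percentile 1.50 in Veh and 97.4 in shCTL, and it had no shSETD7 peak but was at percentile 98.7 of the DMSO list. The site with the widest difference of this kind, on chromosome 6 from 124054848 to 124055355 (percentile 0.714 in Veh and 98.1 in shCTL), also had a DMSO peak and no shSETD7 peak. A site on chromosome 13 from 82843482 to 82843892 was at percentile 93.96 in Veh and 7.22 in shCTL, and had no peak in any other list.

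The strongest private sites of the Veh list were FOXA1 sites of LNCaP, as were most strong shared sites. Of the 10 private Veh peaks with the highest scores, 10 overlapped a DMSO peak, 9 a peak in all 3 LNCaP lists, 2 an shSETD7 peak and 1 a SETD7 peak. For comparison, 92.0% of the shared Veh peaks of the highest decile overlapped a DMSO peak and 79.2% an shSETD7 peak. A DMSO peak was thus not particular to the private sites. Their Veh scores were 724 to 1418, and the nearest shCTL peak was 1456 to 130392 bp away. The highest was on chromosome X from 136520275 to 136520672, with score 1418 (rank 507 of the Veh list) and no shCTL peak for 130392 bp. It was at percentile 99.3 of the GSK2879552 list, 93.7 of the combination list and 88.1 of the DMSO list. The next were on chromosome 3 from 196625505 to 196625903 (score 1374) and chromosome 4 from 70296526 to 70296882 (score 1012), neither with an shSETD7 peak. Chromosome 9 held 3 of the 10, from 42818953 to 42819300, from 44070552 to 44070917 and from 70076576 to 70076927, with Veh scores of 738, 819 and 754. Among the private Veh peaks of the highest decile, those found in all 4 other FOXA1 lists were led by chromosome 8 from 580847 to 581286 (score 898), chromosome 22 from 41684282 to 41684655 (897) and chromosome 4 from 82395013 to 82395394 (708). The last was at percentile 97.8 of the shSETD7 list, and the nearest shCTL peak was 1509 bp away.

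The 10 highest private sites of the shCTL list were mostly without an LNCaP peak, which was not so for the 303 private peaks of the highest decile, of which 164 had a DMSO peak. Of the 10, 5 overlapped an shSETD7 peak, 3 a DMSO peak and 2 a SETD7 peak, and 7 had no peak in any LNCaP list. Their shCTL scores were 2823 to 7272, and the nearest Veh peak was 1260 to 29847 bp away. The highest, on chromosome 13 from 23151211 to 23151544 (score 7272, rank 251), overlapped no other FOXA1 list but was at percentile 99.2 of the SETD7 list. A site on chromosome 13 from 87602857 to 87603133 (score 3008) was at percentile 99.6 of the shSETD7 list and above 99.9 in the SETD7 list. The second highest was on chromosome 8 from 112235210 to 112236022 (score 5551), a broad peak of 813 bp with no peak in any other list. Sites on chromosome 1 from 154563203 to 154563726 (score 3895) and chromosome 6 from 24690676 to 24691220 (score 3086) stood at percentiles 93.6 and 97.6 of the shSETD7 list. Those found in all 4 other FOXA1 lists were led by chromosome 7 from 16098732 to 16099281 (score 3082), chromosome 7 from 27160467 to 27160970 (2672) and chromosome 7 from 3816745 to 3817237 (2197).

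Some short stretches held many private peaks. The bins named here are among the densest, picked by that count, and do not measure how private peaks lie in general. Per bin of 100 kb, the Veh list had at most 10 private peaks. Such bins were on chromosome 3 from 90400001 to 90500000, chromosome 5 from 46300001 to 46400000, chromosome 21 from 10800001 to 10900000 and chromosome X from 61800001 to 61900000, all near centromeres. These 4 bins held 12 or 13 Veh peaks and 3 or 4 shCTL peaks each. The same bins held 3 to 11 SETD7 peaks, and their highest private Veh score was 349. The densest shCTL bin, on chromosome 1 from 148200001 to 148300000, held 14 private shCTL peaks, with 11 peaks in shSETD7, 4 in Veh and 16 in shCTL in all. Among the FOXA1 lists, a stretch of chromosome 19 held peaks only in shCTL and shSETD7. Both lists come from cells with a hairpin and carry the same processing path, so hairpin and processing cannot be told apart here. Between 48407318 and 48461161, a span of 53.8 kb, there were 13 shCTL peaks, all private, with scores of 20 to 182. The 100 kb bin around it held 13 peaks in shSETD7 (scores 18 to 229), 0 in Veh and 0 in each LNCaP list. Of the 13 shCTL peaks there, 8 overlapped an shSETD7 peak and 1 a SETD7 peak. In contrast, a bin on chromosome 8 from 113300001 to 113400000 held 12 private shCTL peaks but only 1 shSETD7 peak.

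Private peaks of the Veh list had fewer neighbours of their own list than shared ones: 37.2% (36.5 to 37.9) had another Veh peak within 10 kb, against 41.8% (41.4 to 42.3) of shared Veh peaks. In the shCTL list this was not so. There 50.3% (49.8 to 50.8) of private peaks and 48.8% (48.3 to 49.3) of shared peaks had such a neighbour. In the highest shCTL decile the shares were 59.1% (53.5 to 64.5) of private peaks and 48.9% (47.8 to 50.02) of shared peaks.

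The private sites of Veh and of shCTL were found in the further lists at different shares. The shSETD7 list carries the same processing path as shCTL and not that of Veh. Processing and cell treatment thus cannot be told apart in the shSETD7 shares. Private peaks were found in the shSETD7 list in 15.2% of cases for Veh (14.7 to 15.7) and 29.7% for shCTL (29.2 to 30.1). Shared peaks were found there in 57.3% of cases for Veh and 58.1% for shCTL. In the highest decile, 19 of the 72 private Veh peaks overlapped an shSETD7 peak, or 26.4% (17.6 to 37.6), against 152 of the 303 private shCTL peaks, or 50.2% (44.6 to 55.8). Shared peaks of the same decile did so in 79.2% for Veh and 79.5% for shCTL.

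For LNCaP the order was the reverse in the highest decile. There 62 of the 72 private Veh peaks overlapped a DMSO peak, or 86.1% (76.3 to 92.3), against 164 of the 303 private shCTL peaks, or 54.1% (48.5 to 59.6). Shared peaks of that decile were DMSO peaks in 92.0% for Veh and 88.4% for shCTL. Over all deciles the private peaks were DMSO peaks in 22.8% (22.2 to 23.4) for Veh and 27.9% (27.5 to 28.4) for shCTL, the opposite order to that of the highest decile. Of the 72 strong private Veh peaks, 34 (47.2%) were in all 3 LNCaP lists but not in shSETD7, against 18.2% of the shared Veh peaks of that decile. Among the 303 strong private shCTL peaks, 61 (20.1%) were in shSETD7 and in no LNCaP list, and 67 (22.1%) were in none of the 4. For shared shCTL peaks of that decile these shares were 6.60% and 2.12%. Among all private peaks, those found in none of these 4 FOXA1 lists were 62.3% for Veh (12202 peaks) and 48.2% for shCTL (18332 peaks). Among all shared peaks they were 16.3% for Veh and 15.9% for shCTL. Overlap with SETD7 was low in every class: 1.75% of private and 2.66% of shared Veh peaks, and 2.0% of private and 2.70% of shared shCTL peaks.

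**Figure D3:**
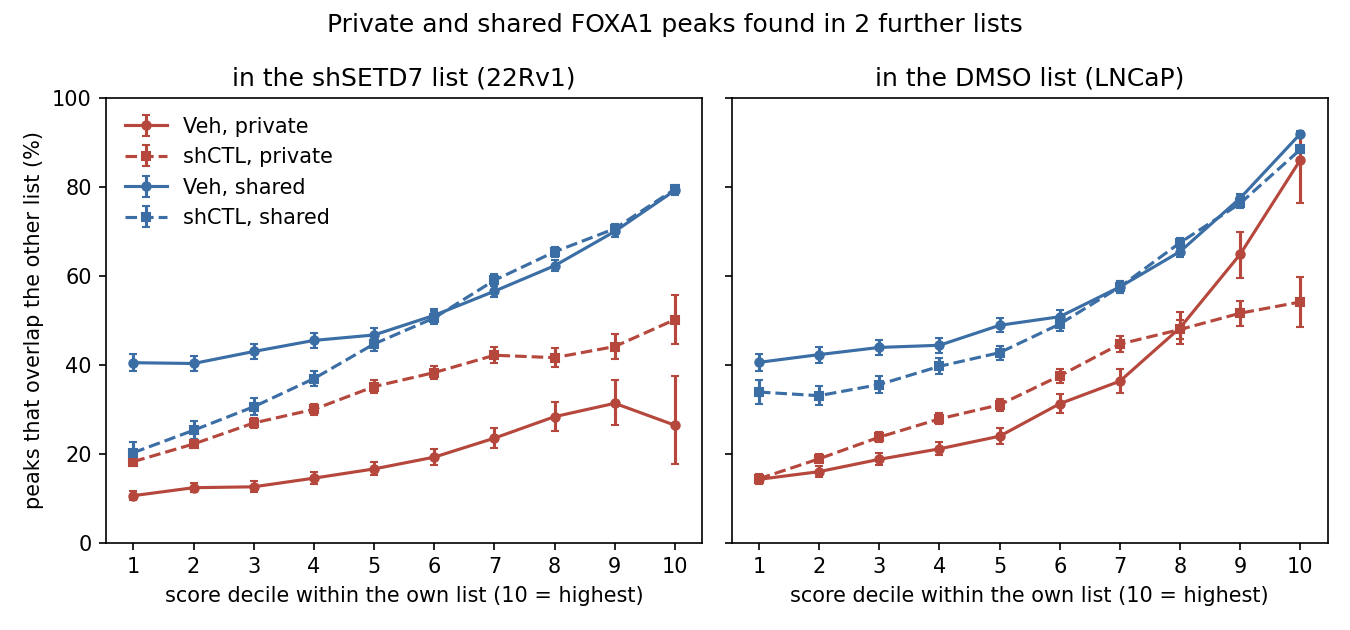
Share (%) of private (red) and shared (blue) peaks of the Veh list (solid) and the shCTL list (dashed) that overlap the shSETD7 list (left) or the LNCaP DMSO list (right), by score decile, with 95% Wilson intervals. In decile 10, private Veh peaks stand at 26.4% for shSETD7 and 86.1% for DMSO, and private shCTL peaks at 50.2% for shSETD7 and 54.1% for DMSO.

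The difference between the controls was set beside the absence of FOXA1 sites after SETD7 knockdown. The comparisons are not like for like: shCTL and shSETD7 carry the same processing path, and Veh and shCTL do not. Each list is 1 library of unknown depth, and the cause of any difference between the shares was not tested. The shSETD7 list (63682 peaks) is close in length to the Veh list. Of the shCTL peaks, 51.6% (43163 peaks) had no shSETD7 peak within 1 kb and 45.5% no Veh peak. Over all peaks the 2 shares thus differed by 6.11 points. Among weak sites absence from Veh was the more frequent: in the lowest shCTL decile 74.99% (74.0 to 75.9) had no shSETD7 peak and 81.2% (80.3 to 82.0) no Veh peak. In decile 3 the shares were 67.4% (66.4 to 68.4) for shSETD7 and 66.6% (65.5 to 67.6) for Veh, and from decile 4 upward the share was higher for shSETD7 in every decile. In decile 9 the shares were 30.8% (29.9 to 31.8) for shSETD7 and 14.2% (13.5 to 14.9) for Veh. In the highest decile they were 19.5% for shSETD7 (18.7 to 20.4, 1631 peaks) and 3.62% for Veh (303 peaks), a difference of 15.9 points (14.99 to 16.8). Over the 1000 highest shCTL peaks the difference was 8.60 points, with 9% absent from shSETD7 and 0.4% absent from Veh. In the highest shCTL decile 11.98% (11.3 to 12.7) of peaks had no peak in the LNCaP DMSO list (79741 peaks). This was also lower than absence from the shSETD7 list of the same line, which is the shorter list. For the LNCaP list with GSK2879552 alone (63866 peaks), close to shSETD7 in length, the share was 13.3% (12.6 to 14.1).

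Some shCTL sites were absent from both other 22Rv1 lists. Of the 1631 shCTL peaks of the highest decile without an shSETD7 peak, 148 had no Veh peak either, or 9.07% (7.77 to 10.6), beside 3.62% of all shCTL peaks of that decile. In the lowest decile the same share was 83.3% (82.4 to 84.2), beside 81.2% of all peaks of that decile. Conversely, 155 peaks of the highest shCTL decile had an shSETD7 peak and no Veh peak. Seen from the Veh list, absence from shSETD7 was the more frequent in every decile, where the shSETD7 list (63682 peaks) is shorter than the shCTL list (83633 peaks). In the lowest Veh decile 73.3% of peaks had no shSETD7 peak and 58.2% no shCTL peak. In its highest decile 19.05% (18.1 to 20.02) of peaks had no shSETD7 peak and 1.11% had no shCTL peak. Over the whole Veh list 52.0% had no shSETD7 peak and 30.1% no shCTL peak.

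**Figure D4:**
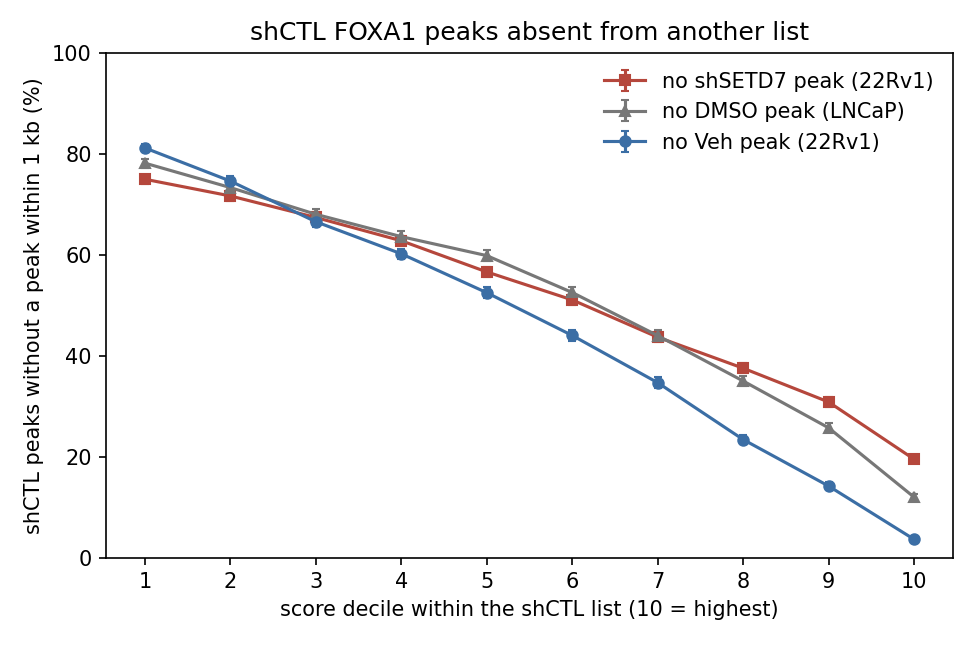
Share (%) of shCTL peaks with no peak within 1 kb in the shSETD7 list (squares), the LNCaP DMSO list (triangles) and the Veh list (circles), by shCTL score decile, with 95% Wilson intervals. The shSETD7 and Veh lines cross near decile 3, and in decile 10 the shares are 19.5% for shSETD7, 11.98% for DMSO and 3.62% for Veh.

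Rank agreement with shCTL depended on which peaks were compared. Over all shCTL peaks with a partner, rho was 0.629 for shSETD7 (37250 peaks) and 0.632 for Veh (42856 peaks). On the 24894 shCTL peaks that overlapped both a shSETD7 and a Veh peak, rho with the shCTL score was 0.603 for shSETD7 and 0.686 for Veh. Of the 8364 shCTL peaks in the highest decile, 48.4% were in the highest decile of shSETD7 and 54.9% in that of Veh. These comparisons share the shCTL library.

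The 22Rv1 controls were less alike than the LNCaP lists, which were made under different drugs. Between LNCaP lists rho ran from 0.798 to 0.897, against 0.620 for Veh and shCTL. None of the 6387 to 8336 peaks in the highest decile of a LNCaP list was without a peak in another LNCaP list. The LNCaP peak names share a processing path, and those of Veh and shCTL do not. Against LNCaP the controls differed in presence. In the highest decile 7.47% (6.85 to 8.13) of Veh peaks and 11.98% of shCTL peaks had no DMSO peak within 1 kb, and rho with DMSO scores was 0.381 for Veh and 0.418 for shCTL.

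Private peaks were spread over all chromosomes, with chromosomes 3 and 19 at the ends. Private Veh peaks made up 34.8% (33.6 to 36.0) of the Veh peaks of chromosome 3 and 25.3% (22.8 to 28.0) of those of chromosome 19. The highest and lowest private shares of shCTL peaks were on the same chromosomes in the opposite order, at 42.0% (40.9 to 43.2) on chromosome 3 and 52.0% (49.6 to 54.4) on chromosome 19. The log2 ratio of Veh to shCTL peaks was −0.17 on chromosome 3, −0.62 on chromosome 19 and −0.36 over all. Because pairing was nearly 1 to 1, the opposite order of the private shares largely restates this ratio.

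**Figure D5:**
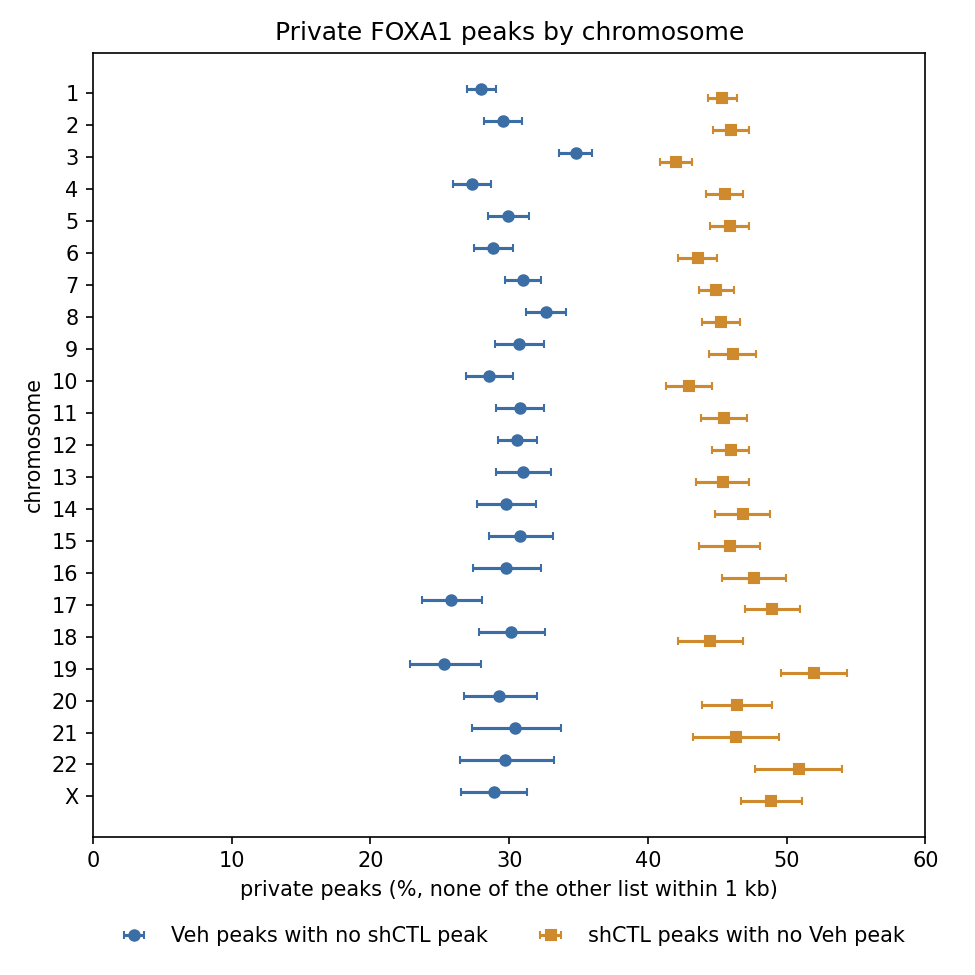
Private peaks (%) of the Veh list (circles) and the shCTL list (squares) on each chromosome, with 95% Wilson intervals. Chromosome 3 has the highest Veh share, 34.8%, and the lowest shCTL share, 42.0%, and chromosome 19 has the lowest Veh share, 25.3%, and the highest shCTL share, 52.0%.

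The first part of chromosome 3 stood apart in the number of peaks and, with it, in private shares. In windows of 10 Mb with at least 50 peaks, the log2 ratio of Veh to shCTL peaks had a median of −0.37 over 307 windows. It was above 0 in 7 of the 8 windows of chromosome 3 up to 80 Mb, in 0 of the 12 windows after it, and in 14 of the 287 windows of other chromosomes. The 80 Mb position was chosen after these values were seen. The first 80 Mb held 2393 Veh and 2083 shCTL peaks, a log2 ratio of 0.20, against −0.35 in the rest of the chromosome and −0.38 on other chromosomes. Private Veh peaks were 44.0% (42.0 to 46.0) there and 29.1% (27.7 to 30.5) in the rest of the chromosome. Private shCTL peaks were 36.6% (34.5 to 38.7) in the first 80 Mb and 44.3% (42.9 to 45.7) after it. Pooled over pairs, shared sites differed the same way in rank. The median percentile difference, Veh minus shCTL, was 0.42 points over the 1281 pairs of the first 80 Mb, and −3.23 points over the 2602 pairs after it. On other chromosomes it was −3.30 points. Medians of single windows ran from −0.74 to 0.98 points in the first 80 Mb and from −10.3 to 8.05 on other chromosomes. The value of 8.05 came from a window of chromosome 14 with 15 pairs, and the windows of the first 80 Mb held 126 to 184 pairs each. Such a range, widened by small windows, cannot show whether the stretch stood apart by rank. The shSETD7 list held 2580 peaks in the first 80 Mb, a log2 ratio of 0.31 to shCTL and 0.11 to Veh. On other chromosomes the ratio of shSETD7 peaks was −0.42 to shCTL and −0.04 to Veh. The Veh and shSETD7 lists thus both held more peaks than shCTL in this stretch.

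Windows far below the median were on several chromosomes. The 2 windows of chromosome 19 before 20 Mb were among the 6 lowest of the 307 and held 197 and 188 Veh peaks against 350 and 322 shCTL peaks, log2 ratios of −0.83 and −0.78. The shSETD7 list held 305 and 280 peaks there. The lowest ratio of any window, −1.05, was on chromosome X from 150 to 160 Mb, with 26 Veh and 54 shCTL peaks. The next were chromosome 2 from 160 to 170 Mb (−0.95, 91 Veh and 176 shCTL peaks) and chromosome X from 20 to 30 Mb (−0.88, 84 Veh and 155 shCTL peaks). Chromosome X from 10 to 20 Mb, at −0.79 with 87 Veh and 150 shCTL peaks, was also among the 6. The highest outside chromosome 3 was 0.29, on chromosome 9 from 40 to 50 Mb, with 128 Veh and 105 shCTL peaks. That window contains 2 of the 10 highest private Veh sites.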

How the data were processed

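FOXA1 and SETD7 were mapped by ChIP-seq in 22Rv1 and LNCaP cells, with 1 library and 1 peak list per group. The submitters' processing notes name MACS2 2.1.4, SAMtools 1.9, BWA 0.7.17-r1188 and FastQC 0.11.9, and the build hg19. For threshold, input control and read depth, the sources used here give nothing. The deposited score, column 5, is a whole number per peak from the authors; its definition is not given, so it was used only within a list. Its lowest value was 13 in all 22Rv1 lists. In LNCaP it was 40 for DMSO, 48 for GSK2879552 alone and 47 for the combination.

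Positions and scores were read from the first 5 columns, and peaks on chromosome Y were left out. Deciles and percentiles are ranks within a list, 10 and 100 being the highest, with ties broken by position. Overlap and gaps were computed in Python 3.11.15 with scipy 1.17.1, pandas 2.3.3 and numpy 2.4.6, checked against bedtools 2.31.1 and tested on simulated lists. Figures were drawn with matplotlib 3.10.9. The interval of the 15.9-point difference is a normal approximation over the same shCTL peaks.

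Named sites are the 10 highest private peaks of each list, the 10 shared pairs with the highest summed percentiles, and 5 private peaks per list in the highest decile found in most other FOXA1 lists. The lists compared, the sites and the alternatives were chosen with earlier results of these data known. A count of peaks around fixed gene lists was also planned. It needs an hg19 annotation, which was not used here, so sites carry no gene names, and no sequence was read. No artefact-prone regions were removed here.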

Additional observations from a re-analysis of the deposited data

Results flagged for a closer look

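Chromosome Y lies outside the comparison, and both control lists held FOXA1 peaks on it, 368 in Veh and 361 in shCTL. Of these, 55.7% of the Veh peaks (50.6 to 60.7) and 54.6% of the shCTL peaks (49.4 to 59.6) overlapped a peak of the other list.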

How the results depend on the processing

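The 8 results were recomputed under 39 alternatives in all; 32 gave a value outside the 95% interval of the reported one, 7 did not, and none changed the sign of a rank correlation or of the difference that can take either sign. With reciprocal overlap of 50%, shared peaks came to 57.0% of Veh and 44.4% of shCTL, and with midpoints within 200 bp to 63.8% of Veh and 49.6% of shCTL. In the higher-scoring 50% of each list they were 72.5% of Veh and 55.8% of shCTL, and with equal-sized lists 61.9% of Veh and 60.8% of shCTL. Without chromosomes 1, 3, 7, 8 and 12, 68.1% of Veh peaks were shared. Private peaks with a limit of 200 bp were 32.6% of Veh and 48.6% of shCTL, with 5 kb 23.2% of Veh and 37.5% of shCTL, with equal-sized lists 35.6% of Veh and 36.5% of shCTL, in the higher-scoring 50% 26.1% of Veh and 42.5% of shCTL, and without those 5 chromosomes 29.3% of Veh and 46.0% of shCTL. Without peaks that overlap a SETD7 peak, 30.5% of Veh peaks were private, and without chromosome 3, chosen after seeing the data, 29.6%. In the highest decile, private peaks with a limit of 5 kb were 0.753% of Veh and 2.81% of shCTL, and with equal-sized lists 1.44% of Veh and 2.73% of shCTL. Of the 1000 highest they were 0.2% of Veh and 0.4% of shCTL. The rank correlation of Veh and shCTL scores was 0.631 over pairs that overlap 1 to 1 only and 0.595 in the higher-scoring 50%. The difference between absence from shSETD7 and from Veh (15.9 points) was 17.7 points by overlap of 1 bp, 14.9 with 3 lists of equal length and 8.60 over the 1000 highest shCTL peaks, where 9% had no shSETD7 peak and 0.4% no Veh peak. Changed limits and shorter lists alter these shares by construction, and otherwise the cause was not tested. No paired analysis was possible because each group holds 1 library. Depth, unknown here, limits every shared share, and without replicates the variation between Veh and shCTL cannot be split into cells, chromatin preparation and sequencing.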
